A study of Arabidopsis thaliana with 24 samples.

Results

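Hypocotyls of wild-type Arabidopsis seedlings that had been moved to solvent medium without auxin were compared between 30 min and 2 h after the transfer. The comparison rests on the 6 wild-type control (DMSO) samples of experiment a, 3 biological replicates at each time, of the 24 samples of the series. Seedlings were 5 days old, grown on nylon mesh in long days (16 h light and 8 h dark), and were moved to DMSO medium 2 h after lights on. Hypocotyls were cut out over 30 min, at least 400 were pooled per replicate over several days of collection, and the RNA was amplified before it was measured on a NimbleGen array. All 6 control samples were labeled with Cy5. Set beside them, where stated, are the 6 wild-type samples of the same experiment on 5 µM picloram, a synthetic auxin, for 30 min or 2 h, which all carried Cy3. No sample was left without the transfer, and time after transfer and time of day advance together in this design, so they cannot be told apart. In these pools, fewer cells of a type and less RNA per cell cannot be told apart either.

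The hypocotyl is the embryonic stem, which grows in light mainly by cell expansion. In the hours after lights on the circadian clock of the plant moves from its morning to its daytime state: the MYB factors CCA1 and LHY peak near dawn, the pseudo-response regulators follow in series through the day, and the evening complex peaks near dusk. The other programs looked at here are the iron deficiency response, in which bHLH factors of subgroup Ib act with the bHLH protein FRU (FIT1) to switch on iron uptake, the genes that are switched on when sugars run short, and the early responses to touch and wounding. Those to pathogens, zinc and light were looked at as well.

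The values are normalized log2 intensities, with 1 transcript per locus for 30361 loci. Their lower quartile was 6.54, their median 10.1 and their upper quartile 12.6, and levels near or below 6.54 are described here as dim, since the background of the deposited values is not known. The 6 control samples correlated with each other at 0.964 to 0.991. The epidermal markers KCS10 (FDH), PDF1 and ATML1 lay between 13.52 and 15.98, and the xylem markers CESA4, IRX3, IRX1, XCP1 and XCP2 between 11.49 and 14.70. Of the 12 root and root hair markers, 2 (LRX1 and PRP3) were dim in every control sample, as was the stem cell factor WUS among the 6 markers of the shoot apex. The 3 samples of a group spread more at 30 min than at 2 h: 15.1% of all transcripts ranged over more than 1 log2 unit at 30 min, and 9.44% at 2 h.

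At 2 h, 108 of the 30361 transcripts (0.356%) differed from 30 min by limma at an FDR under 0.05. Of these, 76 were higher (0.25%) and 32 lower (0.105%) at 2 h. Without normalization between arrays there were 16 higher and 19 lower, and with the 2 control groups alone in the fit 1 was called, AT1G13609. The median log2 difference of all transcripts was -0.02 and its median standard error 0.23. In all 108 the 3 samples of one time lay above the 3 of the other, which also held for 23.9% of all transcripts. The count depended on single samples. It was 21 without 30 min replicate 1, 183 without 30 min replicate 2, and 6 without 30 min replicate 3, whose clock genes stood apart as described further on. Without replicate 1, 2 or 3 at 2 h it was 9, 1 and 4. AT1G13609 was called in all 6 of these fits, 28 of the 108 in none, and all 108 kept their direction in each. A call named below is therefore a call with all 12 samples of the experiment in the fit, unless more is said. At an unadjusted p under 0.05 there were 5005 transcripts (16.5%), 2359 higher (7.77%) and 2646 lower (8.72%).

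**Figure D1:**
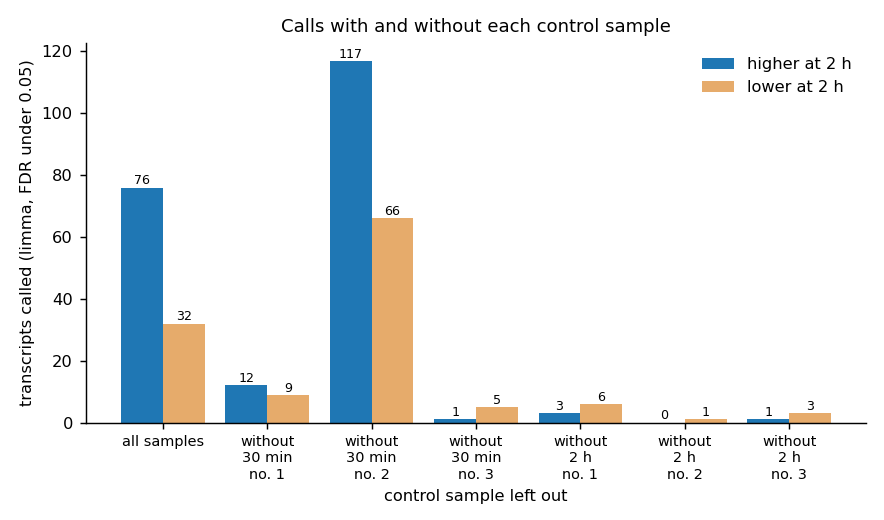
Number of transcripts called higher or lower at 2 h than at 30 min in control hypocotyls (limma, FDR under 0.05), with all samples and with each of the 6 control samples left out in turn. Higher calls fell from 76 to between 0 and 12 in 5 of the 6 fits, and lower calls from 32 to between 1 and 9 in the same 5, while both were above the full count without 30 min replicate 2.

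Regulators of iron deficiency were among the genes with the largest falls. All 4 bHLH factors of subgroup Ib on the array (bHLH38, bHLH39, BHLH100 and BHLH101), which switch on iron uptake in Arabidopsis, were called lower at 2 h, between 4.36-fold and 9.76-fold below 30 min. POPEYE (PYE), a bHLH repressor that acts on iron transport and storage genes, fell 2.49-fold. These lists were drawn up after the values of these genes had been seen, so their counts describe the genes and test nothing, and they stand against the 0.105% of all transcripts called lower.

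bHLH38 read 9.45, 10.49 and 9.87 in replicates 1, 2 and 3 at 30 min and 7.16, 6.87 and 5.91 at 2 h. It fell by 3.29 on the log2 scale (SE 0.41, adjusted p = 0.014). Its neighbour on the chromosome and close relative bHLH39, whose probes may share signal with it, read 9.16, 10.17 and 9.41 at 30 min and 6.39, 6.91 and 7.28 at 2 h, and fell by 2.72 (SE 0.44, adjusted p = 0.0328). For both genes all samples at 2 h lay far below all samples at 30 min. BHLH100 went from 8.50, 10.23 and 9.14 to 6.37, 6.55 and 5.85, a log2 difference of -3.04 (SE 0.52, adjusted p = 0.0405). BHLH101, the dimmest of the 4, went from 8.31, 7.43 and 7.43 to 5.85, 5.54 and 5.41 and fell by 2.12 (SE 0.23, adjusted p = 0.0122). At 2 h the 4 genes were at or near the dim end of the array, so the size of their fall depends on the background taken. With an offset of 50 added before the log2, the mean log2 difference of the 4 was -2.22, and without it -2.79. With 1 control sample left out, the adjusted p ranged from 0.011 to 0.0709 for BHLH101, from 0.0317 to 0.0709 for bHLH38, from 0.0539 to 0.137 for bHLH39, and from 0.0543 to 0.17 for BHLH100.

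PYE held 11.73, 11.63 and 11.46 at 30 min and 10.25, 10.51 and 10.11 at 2 h, a log2 difference of -1.32 (SE 0.20, adjusted p = 0.0243). ORG1, which like bHLH38 (ORG2) and bHLH39 (ORG3) was named for its response to the DOF factor OBP3, fell from 14.59, 13.88 and 13.99 to 12.24, 12.60 and 12.63 (log2 difference -1.66, SE 0.21, adjusted p = 0.014). ORG1 was the brightest gene of this set and stayed far above the dim end. The largest fall of all was that of AT1G13609, which carries no name in the reference. It read 10.30, 11.20 and 10.40 at 30 min and 6.60, 6.16 and 6.23 at 2 h, 19.7-fold lower (log2 difference -4.30, SE 0.36, adjusted p = 0.00335, at most 0.0399 with any 1 sample left out). Also among the 12 largest falls were the unnamed loci AT2G14247 (-3.13, adjusted p = 0.014) and AT5G05250 (-2.23, adjusted p = 0.0122).

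The rest of the iron system did not follow as a block. Of the 11 other iron regulators PYE was the 1 called, and the median difference of the list was -0.23. The 3 members that moved most after PYE were MYB10 (-0.93, adjusted p = 0.319), ILR3 (-0.81, adjusted p = 0.417) and bHLH115 (0.63, adjusted p = 0.122). FRU, the partner of the subgroup Ib factors, read 7.66, 8.56 and 8.63 at 30 min and 8.58, 8.74 and 9.25 at 2 h (log2 difference 0.58, adjusted p = 0.363). BTS, an E3 ligase that restrains the iron response, read 13.04, 12.80 and 13.15 and then 12.10, 12.52 and 12.62, with every 2 h sample below every 30 min sample (log2 difference -0.58, adjusted p = 0.201).

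None of the 19 genes of iron uptake, transport and chelation was called, and their median difference was -0.05. Members moved both ways: 6 lay wholly above 30 min and 3 wholly below, against 11.2% and 12.6% of all transcripts. The root uptake genes IRT1, IRT2 and FRO2 were dim, between 5.71 and 6.92 over the 6 control samples. OPT3, which loads iron into the phloem, read 15.07, 15.28 and 15.17 at 30 min and 14.39, 14.62 and 14.41 at 2 h (log2 difference -0.70, adjusted p = 0.102). NAS2, a nicotianamine synthase, had the largest difference of the list, from 9.34, 8.07 and 7.32 to 10.26, 10.45 and 11.66 (2.55, adjusted p = 0.0916), followed by NRAMP4 (-1.39), NAS1 (1.19) and the vacuolar importer VIT1 (0.82). The NRAMP4 difference came from 1 sample, 2 h replicate 2, at 9.46 against 13.44 to 13.69 in the other 5. The 4 ferritins, the iron storage proteins, had differences between 0.17 (FER2) and 0.83 (FER4), all above 0 and none called. NEET, an iron-sulfur protein, rose from 12.38, 11.65 and 11.85 to 13.45, 13.30 and 13.14 (log2 difference 1.34, SE 0.22, adjusted p = 0.0344). SUFE2, which supplies sulfur for iron-sulfur clusters, rose by 0.99 (SE 0.16, adjusted p = 0.0344).

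**Figure D2:**
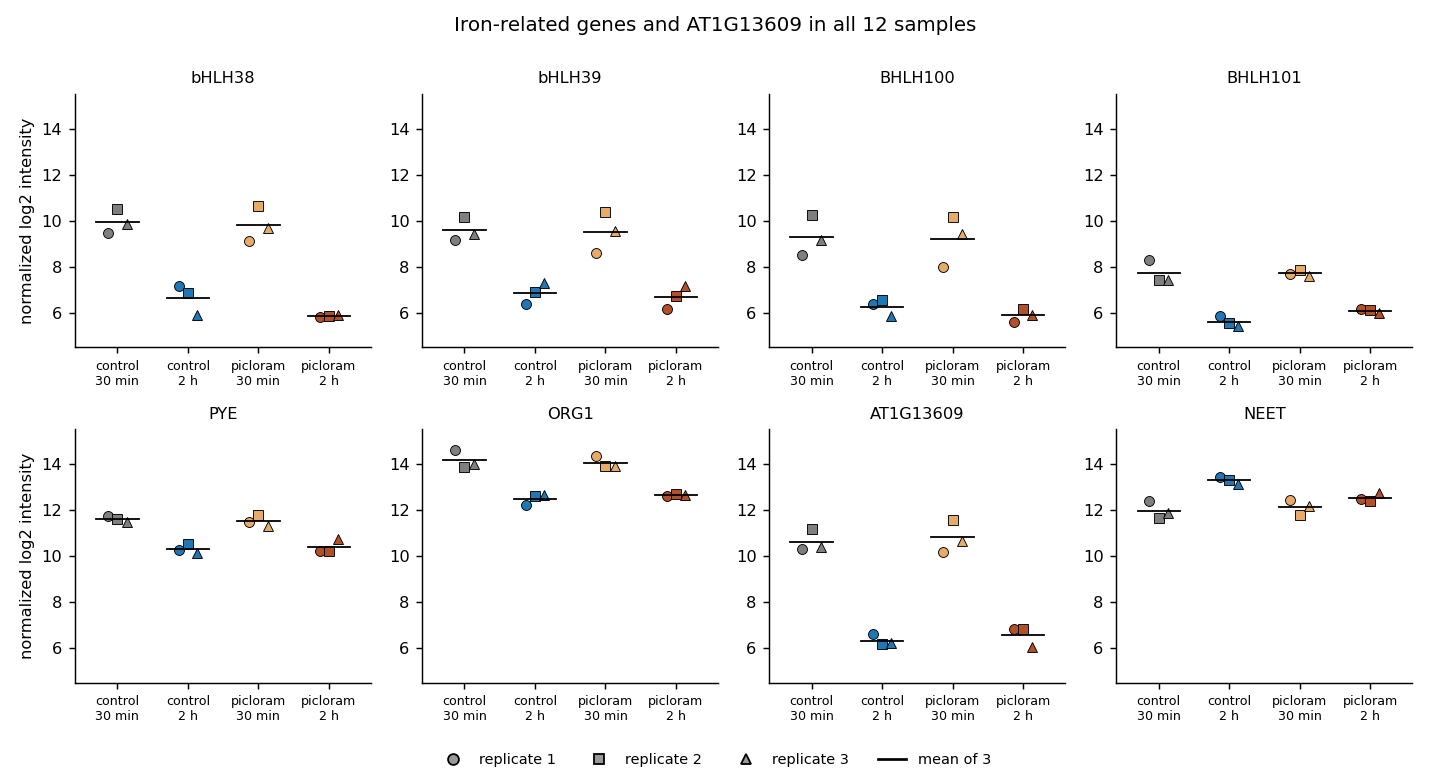
Normalized log2 intensity of 8 genes in the 12 samples of the experiment, by group, with 1 symbol per replicate and a line at the mean of 3. The 4 subgroup Ib bHLH genes, PYE, ORG1 and AT1G13609 lie lower in all 3 samples at 2 h than in all 3 at 30 min, in the control and in the picloram samples, while NEET is higher at 2 h in the control samples.

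The 2 h fall of the iron regulators was also present in the samples on picloram. There the log2 difference between 2 h and 30 min was -3.96 for bHLH38, -2.83 for bHLH39, -3.31 for BHLH100 and -1.63 for BHLH101. It was -1.14 for PYE, -1.41 for ORG1 and -4.23 for AT1G13609. All 7 were called in that comparison as well (largest adjusted p = 0.00965, for PYE), beside 3.33% of all transcripts called lower there. The difference between the arms was called for none of these 7, with the smallest adjusted p of the interaction at 0.504 (BHLH101). AT5G05250 fell further on picloram, by 4.09 against 2.23 in the controls (interaction -1.85, SE 0.35, adjusted p = 0.0413). The picloram samples are not a wholly separate repeat: same-numbered control and picloram samples of 1 time deviated from their group means together, with correlations of 0.336 to 0.598.

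**Figure D3:**
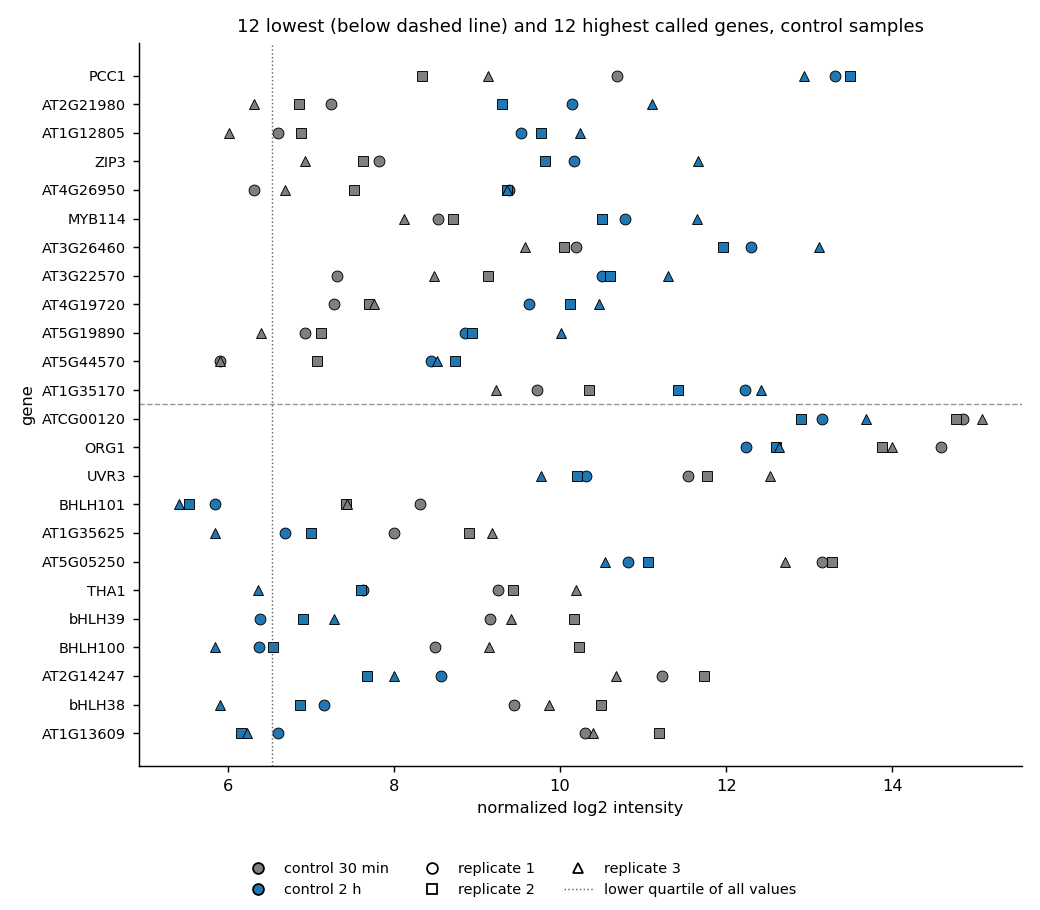
Normalized log2 intensity of the 12 called genes with the largest rise and the 12 with the largest fall, in each of the 6 control samples. Color gives the time, symbol the replicate, the dashed line parts rises from falls, and the dotted line marks the lower quartile of all values (6.54). In every gene shown the samples of both times are apart, and 7 of the 12 that fell end within 1 log2 unit of the dotted line or below it in at least 1 sample at 2 h.

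The other large falls were of genes with varied roles. THA1, a threonine aldolase that breaks down threonine, read 9.25, 9.43 and 10.19 at 30 min and 7.63, 7.60 and 6.36 at 2 h (log2 difference -2.43, SE 0.42, adjusted p = 0.0405). UVR3, the photolyase that repairs UV-induced 6-4 photoproducts, fell from 11.54, 11.77 and 12.52 to 10.31, 10.20 and 9.77 (-1.85, SE 0.27, adjusted p = 0.0243). Both genes were lowest in 2 h replicate 3 and highest in 30 min replicate 3. AT1G35625 fell by 2.18 and the transcript ATCG00120 by 1.65. Smaller falls of named genes were those of BT2, a BTB and TAZ domain protein (-1.59, adjusted p = 0.0483), MGL, the methionine gamma-lyase (-1.39, adjusted p = 0.0244), the potassium transporter KUP9 (-1.25, adjusted p = 0.0243), the trehalose phosphate synthase TPS11 (-1.15, adjusted p = 0.0407), the mitochondrial editing factor MEF18 (-0.98) and the myosin XIA (-0.77). Among loci without a name, AT1G11960 went from 13.99, 13.80 and 14.04 to 12.53, 12.58 and 12.21 and kept its call in 5 of the 6 fits with a sample left out. MGL had adjusted p-values from 0.0472 to 0.119 in these fits, and THA1 from 0.0524 to 0.151.

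Genes that mark sugar shortage lay lower at 2 h, although 1 was called. Of the 21 genes of sugar starvation and trehalose metabolism, 18 had a difference below 0 and 12 had all 3 samples at 2 h below all 3 at 30 min, against 12.6% of all transcripts. The median difference was -0.47, beside -0.02 for all transcripts, and 1 gene, TPS11, was called (against 0.105%). The mean level of the list was 13.71, 13.51 and 13.93 in the samples at 30 min and 13.11, 12.99 and 12.80 at 2 h.

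TPS11 read 13.13, 12.69 and 13.32 at 30 min and 11.74, 12.01 and 11.95 at 2 h. The members with the largest differences were not called: BCAT-2, a branched-chain aminotransferase (-2.22, adjusted p = 0.073), ASN1, the asparagine synthetase also known as a dark-induced gene (-1.87, adjusted p = 0.0686), DIN2, a beta-glucosidase (-1.73, adjusted p = 0.134), and SEN1 (-1.51, adjusted p = 0.0845). ASN1 held 15.15, 14.29 and 15.26 at 30 min and 13.51, 13.21 and 12.38 at 2 h. STP1, a hexose transporter, held 15.78, 15.57 and 15.66 and then 14.68, 14.70 and 14.66, lower in every sample (log2 difference -0.99, adjusted p = 0.0603). GPT2, a glucose phosphate translocator of plastids that responds to sugar, ran from 7.90, 9.04 and 11.61 at 30 min, the widest spread of the list, to 9.61, 9.65 and 9.56 at 2 h.

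Most genes of amino acid breakdown were lower as well. Of 14 genes, a list drawn up after the values were seen, THA1 and MGL were called lower and none higher, 9 lay wholly below 30 min, against 0.105% of all transcripts called lower and 12.6% wholly below, and the median difference was -0.73. MGL was steady within both groups, with 14.38, 14.32 and 14.41 at 30 min and 13.06, 12.96 and 12.93 at 2 h. After these and BCAT-2 came MCCA, a subunit of methylcrotonyl-CoA carboxylase that acts in leucine breakdown (-1.31, adjusted p = 0.0842). On picloram the list's median difference was -0.43 and that of the sugar list -0.03. There GDH1 (-0.81), IVD (-0.74) and AT4G33150 (-0.75) of the amino acid list and SEN1 (-1.66) of the sugar list were called lower, and MGL and TPS11 were called higher. Of all transcripts 3.33% were called lower and 2.55% higher on picloram. MGL rose there by 1.09 (adjusted p = 0.0151) and TPS11 by 1.02 (adjusted p = 0.0161), and the difference between the arms was called for both (2.48, adjusted p = 0.00898, and 2.16, adjusted p = 0.0126). ASN1, with -0.12 on picloram, was not called there.

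The largest rise was that of PCC1 (PATHOGEN AND CIRCADIAN CONTROLLED 1), a small protein named for its response to pathogens and the clock. It read 10.68, 8.34 and 9.14 at 30 min and 13.31, 13.49 and 12.94 at 2 h, 14.5-fold higher (log2 difference 3.86, SE 0.64, adjusted p = 0.0344). Its values were far apart at 30 min and close together at 2 h, and its adjusted p ran from 0.0443 to 0.13 with 1 sample left out. Other genes of the response to salicylate and pathogens rose with it. Of 17 genes, again listed after their values were seen, 4 were called higher (PCC1, ACD6, PR4 and IOS1), none lower, 10 lay wholly above 30 min and 1 (PR5) wholly below, against 0.25% of all transcripts called higher and 11.2% wholly above. The median difference was 0.99.

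ACD6, a membrane protein that raises salicylate signaling, went from 8.43, 7.20 and 8.00 to 9.85, 9.53 and 10.21 (1.98, SE 0.33, adjusted p = 0.0344). PR4, a hevein-like protein, went from 12.09, 12.69 and 12.11 to 13.54, 13.43 and 13.63 (1.24, SE 0.18, adjusted p = 0.0243), and the receptor kinase IOS1 rose by 1.20 (SE 0.18, adjusted p = 0.0244). Both groups of samples were narrow for PR4 and IOS1. EARLI1 (1.58, adjusted p = 0.16) and ALD1 (1.45, adjusted p = 0.434), which makes pipecolic acid, had the next largest differences and were not called, and for ALD1 the difference came from 2 h replicate 3 at 10.31. PR1, the classic salicylate marker, was dim, between 6.05 and 7.27, and PR5 was the member with the most negative difference (-1.43, adjusted p = 0.169).

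Zinc transporters of the ZIP family had differences above 0 in all 7 members listed after the fact. Of these, 1 was called higher and 2 lay wholly above 30 min, against 0.25% and 11.2% of all transcripts. ZIP3 read 7.82, 7.62 and 6.93 at 30 min and 10.17, 9.81 and 11.65 at 2 h, 8.51-fold higher (3.09, SE 0.48, adjusted p = 0.0281). ZIP2, at 10.46, 10.12 and 9.66 and then 11.68, 11.95 and 13.11, missed the threshold with an adjusted p of 0.0505 (2.16, SE 0.40). Both genes were highest in 2 h replicate 3. ZIP5 (0.46) and ZIP1 (0.12) were not called. On picloram ZIP3 differed by 1.42 (adjusted p = 0.111) and ZIP2 by 1.64 (adjusted p = 0.0367), but the median of the 7 was -0.70 there. ZIP2 was the 1 called higher on picloram, against 2.55% of all transcripts. The 2 called lower, against 3.33% of all transcripts, were IRT3 (-1.38, adjusted p = 0.00286) and ZIP1 (-0.70, adjusted p = 0.0187).

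Of the regulators of anthocyanin synthesis, MYB114 rose from 8.53, 8.71 and 8.13 to 10.78, 10.50 and 11.65 (2.52, SE 0.43, adjusted p = 0.0403). It was the 1 call among 8 such regulators, listed after their values were seen, against 0.25% of all transcripts called higher. PAP1 (AT1G56650) read 8.25, 9.62 and 8.53 and then 10.36, 10.38 and 10.76 (1.70, adjusted p = 0.11), and MYB90 differed by 0.97, both wholly above 30 min and not called, while the samples of TT8 (1.32) overlapped. MYB114, MYB90 and PAP1 are close paralogs, so their probes may share signal. In the list of flavonoid synthesis and light protection 21 of 22 members had a difference above 0 (median 0.63), 5 lay wholly above 30 min, against 11.2% of all transcripts, and none was called. Its 30 min samples were wide apart: DFR, which makes leucoanthocyanidins, read 9.05, 12.36 and 9.64 at 30 min and 11.77, 11.64 and 12.15 at 2 h, so that 30 min replicate 2 lay above all samples at 2 h. MYB12, a flavonol regulator, had the largest difference (1.85, adjusted p = 0.196), followed by PAP1, DFR (1.51, adjusted p = 0.447) and the early light-induced protein ELIP2 (1.47, adjusted p = 0.39).

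Of the 12 largest rises, 9 belong to loci without a name: AT2G21980 (3.38), AT1G12805 (3.35), AT4G26950 (2.53), AT3G26460 (2.52), AT3G22570 (2.49), AT4G19720 (2.49), AT5G19890 (2.46), AT5G44570 (2.27) and AT1G35170 (2.26). In all, 31 of the 76 genes that rose and 14 of the 32 that fell carry a name in the reference. AT2G21980 read 7.24, 6.86 and 6.31 at 30 min and 10.14, 9.31 and 11.11 at 2 h, and AT1G12805 6.61, 6.88 and 6.01 and then 9.54, 9.78 and 10.24. Both were dim or nearly so at 30 min, so their differences depend on the background as well. AT5G19890, at 6.93, 7.13 and 6.40 and then 8.86, 8.94 and 10.01, kept its call in 4 of the 6 fits with a sample left out, the most of these 9. AT4G12490 (2.03) and AT4G12500 (2.24), which lie in the same stretch of the chromosome, rose as well.

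Named genes with smaller rises covered several functions. In the cell wall and phenylpropanoid metabolism they were UGT72E2, a glucosyltransferase of monolignols (2.19), the laccase LAC7 (1.95), the peroxidase Prx37 (1.24) and the plantacyanin ARPN (1.38). In transport they were the ammonium transporter AMT1;3 (2.01) and the peptide transporter PTR3 (1.85). In regulation they were the protein kinases SNRK2.7 (1.86) and RBK1 (0.92), and the transcription factors MYB45 (1.70), NF-YA10 (1.64), TGA10 (1.34) and ERF71 (HRE2, a factor of the low oxygen response, 1.30). The glutathione transferase GSTF6 (1.62), the nicotinamidase NIC3 (1.90), the adenine phosphoribosyltransferase APT4 (1.17) and the cytochrome P450 CYP78A10 (2.15) were further examples. SNRK2.7 had the smallest adjusted p of these (0.014), with 10.37, 11.01 and 10.20 at 30 min and 12.35, 12.45 and 12.38 at 2 h.

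Single samples stood out within the called genes. Of the 32 that fell, 19 had their lowest value at 2 h in replicate 3, against 12506 of all 30361 transcripts. In 16 of the 32 the highest value at 30 min was in replicate 3, which was not counted over all transcripts. Of the 76 that rose, 49 had their highest value at 2 h in replicate 3, against 10235 of all transcripts. Their lowest value at 30 min was in replicate 3 for 42, against 9765 of all transcripts. Markers of roots and root hairs had higher values at 2 h too, most of all in 2 h replicate 3. Over the 12 root markers the mean level was 7.54, 7.69 and 7.31 at 30 min and 8.00, 7.79 and 8.73 at 2 h, all 12 differences were above 0 (median 0.48), 4 lay wholly above 30 min, against 11.2% of all transcripts, and none was called. EXPA7, an expansin of root hairs, read 5.97, 6.40 and 6.33 at 30 min and 7.40, 6.91 and 9.51 at 2 h (1.70, adjusted p = 0.309), and the quiescent center factor WOX5 8.31, 8.18 and 6.02 and then 8.93, 8.95 and 8.95 (1.44, adjusted p = 0.195). EXPA18 (0.84) was high in the same single sample, 2 h replicate 3, and XTH14 (1.19) was highest there. On picloram the mean level of the root markers was 8.20, 7.81 and 7.52 at 30 min and 9.43, 9.51 and 8.49 at 2 h. Their median difference there was 0.94, and 3 of the 12 were called higher, against 2.55% of all transcripts. The part of root tissue in the rises was not tested.

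No gene of the circadian clock was called. Of 39 clock and clock output genes 0 passed the threshold (0.356% of all transcripts did), and 6 lay wholly below 30 min, against 12.6% of all transcripts, and none wholly above. The 30 min control samples lay far apart in several clock genes, and the cause was not tested. CCA1, a morning MYB factor, read 12.87, 12.18 and 7.56 in replicates 1, 2 and 3 at 30 min and 11.32, 10.85 and 11.29 at 2 h. LHY, its close relative, read 12.24, 12.18 and 8.05 and then 9.72, 10.10 and 11.62. PRR9, the first of the pseudo-response regulators to peak in the morning, read 12.93, 11.03 and 6.88 and then 10.98, 10.73 and 10.83. In all 3 genes replicate 3 at 30 min lay far below the other 5 control samples, and replicates 1 and 2 at 30 min lay above every sample at 2 h.

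The coactivators LNK3 (AT3G12320) and LNK4 (AT5G06980) were also lowest in 30 min replicate 3, with 12.16, 11.64 and 8.73 and 14.56, 13.79 and 11.31 at 30 min against 11.88, 11.56 and 11.60 and 14.08, 14.05 and 13.93 at 2 h. LNK2 (AT3G54500, log2 difference 0.27) and LNK1 (AT5G64170, 0.33) were lowest there too. PRR3, BOA and COR27, chosen after their values were seen, were highest in the same sample, while PRR5 was highest in replicate 1. PRR3 read 10.57, 11.85 and 13.19 at 30 min and 10.74, 10.86 and 11.26 at 2 h. BOA read 10.53, 11.80 and 12.30 and then 11.13, 10.97 and 10.37, and COR27 9.40, 11.80 and 12.34 and then 10.83, 10.90 and 10.32. The picloram sample at 30 min with the same number did not share the low morning genes: CCA1 read 11.69, 10.82 and 10.89 in the 3 picloram samples at 30 min, and LHY 10.88, 11.21 and 10.79.

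Without replicate 3 at 30 min, the log2 difference of CCA1 went from 0.28 to -1.37 (adjusted p = 0.144), that of LHY from -0.34 to -1.73 (adjusted p = 0.258) and that of PRR9 from 0.57 to -1.13 (adjusted p = 0.485). The direction of CCA1 and PRR9 thus rests on this sample, and no call was gained. LNK3 and LNK4 turned from 0.83 and 0.80 to -0.22 and -0.16.

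Some clock genes were steadier, and those of them with the smallest adjusted p lay lower at 2 h, though none was called. ELF3, a member of the evening complex, read 12.77, 12.48 and 12.97 at 30 min and 12.23, 11.94 and 11.78 at 2 h (-0.76, adjusted p = 0.11). TOC1, the pseudo-response regulator of the evening, read 13.61, 13.34 and 14.22 and then 12.77, 13.10 and 13.09 (-0.73, adjusted p = 0.176), and PRR5 15.56, 14.75 and 14.72 and then 14.54, 14.23 and 13.94 (-0.78, adjusted p = 0.244). With GI (-0.23), FKF1 (-0.62) and the F-box protein ZTL (-0.37) they are the 6 genes whose samples at 2 h lay wholly below 30 min, as held for 12.6% of all transcripts. In the rest of the evening group the differences were -0.47 for PCL1 (LUX), -0.05 for ELF4, -0.73 for BOA, -0.06 for LKP2 and 0.21 for TCP11 (CHE). PRR7, which peaks in the late morning, differed by 0.12 and PRR3 by -0.91. The other morning MYB factors lay between -0.45 (RVE2) and 0.47 (RVE8), with -0.20 for ASG4, 0.42 for EPR1, -0.28 for LCL1 (RVE4), 0.31 for RVE1, 0.02 for AT4G01280 and -0.29 for AT5G52660.

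The 11 clock output genes ran from -0.58 (CDF2) to 0.78 (COL2). COL2 and the unnamed AT1G69570 (0.50) were lowest in 30 min replicate 3, as were the DOF factors CDF3 (0.21) and CDF1 (-0.29). AT4G33980 (-0.48), COR27 (-0.50) and CO (-0.43), the flowering regulator CONSTANS, were highest there. COL1 (-0.02) and the RNA-binding proteins GRP7 (-0.18) and CCR1 (0.09) differed by less than the range within either group. On picloram none of the 39 was called between 30 min and 2 h, against 5.87% of all transcripts.

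**Figure D4:**
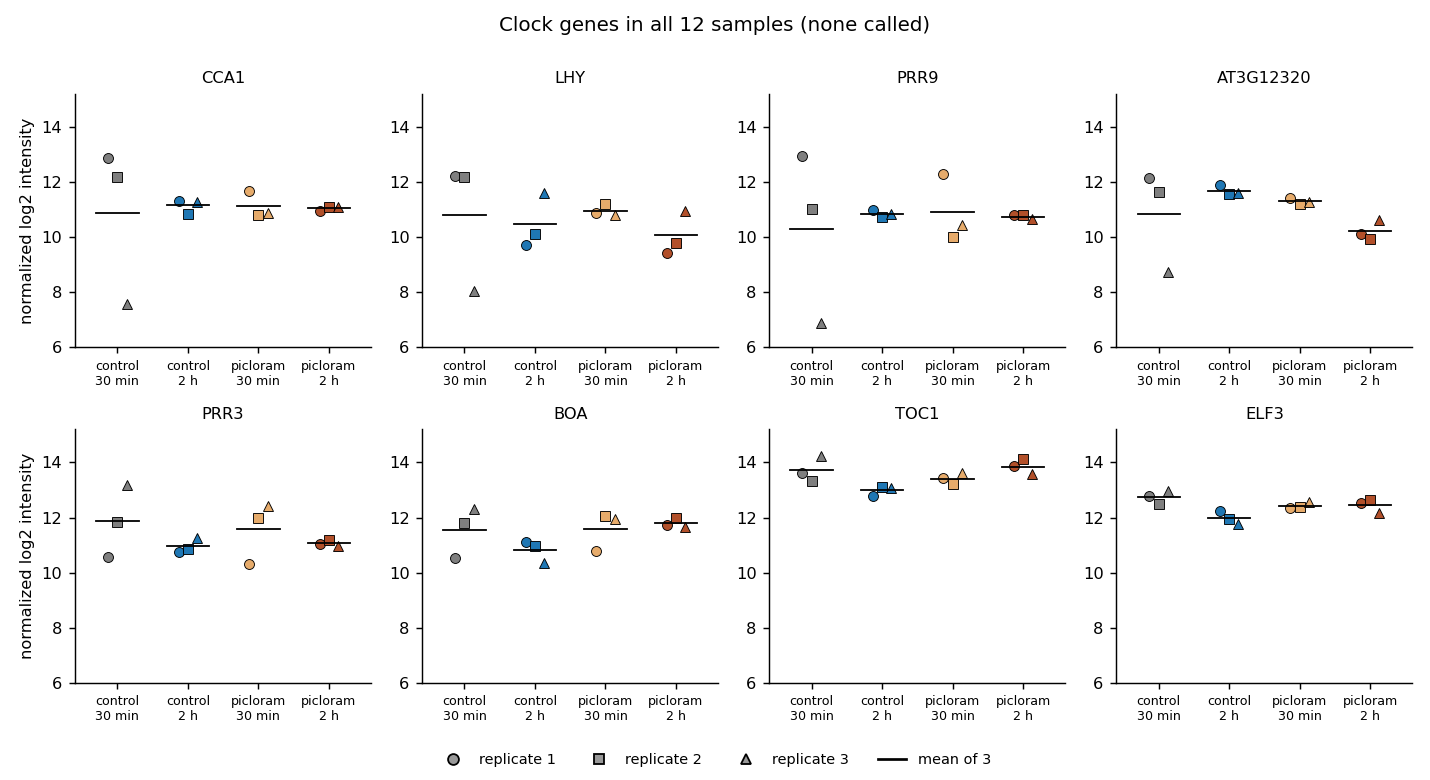
Normalized log2 intensity of 8 clock genes in the 12 samples of the experiment, by group, with 1 symbol per replicate and a line at the mean of 3. CCA1, LHY, PRR9 and AT3G12320 (LNK3) are far lower in control replicate 3 at 30 min than in the other 11 samples, and PRR3, BOA and TOC1 are higher there than in any other control sample.

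None of the 39 genes of light harvesting and the photosystems was called, their median difference was 0.03 and their mean level lay between 14.2 and 14.6 in every control sample. The largest differences were those of the antenna genes LHCB2.2 (1.11) and LHCB2.1 (0.67), both lowest in 30 min replicate 3, PSAD-2 (0.47) and LHCB4.3 (-0.45). The 5 genes of carbon fixation lay between -0.35 (RBCS2B) and 0.33 (RBCS1B), with RCA at -0.31 and RBCS1A at 0.09, and none was called.

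None of the 33 early genes of touch and wounding was called and their median difference was -0.03. At 30 min 14 of the 33 ranged over more than 1 log2 unit, and 1 did at 2 h. WRKY40 read 15.26, 14.76 and 13.53 at 30 min and 13.76, 13.57 and 13.20 at 2 h (-1.01, adjusted p = 0.249), with 30 min replicate 3 near the 2 h level. The next largest differences were those of WRKY70 (0.77), WRKY53 (0.70) and the calmodulin-like CML39 (AT1G76640, -0.65). In the jasmonate list of 23 genes 16 differences were below 0 (median -0.25). Of the 23, 5 lay wholly below 30 min and 2 wholly above, against 12.6% and 11.2% of all transcripts. The 1 called, against 0.25% of all transcripts called higher, was JAZ4, a repressor of jasmonate signaling, which rose from 8.84, 9.28 and 9.60 to 10.32, 10.66 and 10.47 (1.24, SE 0.21, adjusted p = 0.0369). The synthesis gene LOX3 read 12.45, 11.45 and 9.41 at 30 min and 9.17, 9.37 and 9.02 at 2 h, and JAZ5 13.18, 12.75 and 10.82 and then 10.67, 10.46 and 10.55. Both were wholly below 30 min at 2 h, with differences of -1.91 and -1.69, and not called (adjusted p = 0.201 and 0.207). VSP2, a storage protein under jasmonate control, differed by 1.40 and was not called.

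Auxin and growth genes, of interest since these samples are the controls of an auxin experiment, gave 1 call, higher at 2 h. Of all transcripts 0.25% were called higher. In the SAUR family of early auxin response genes, AT1G29420 (SAUR61) rose from 8.66, 8.88 and 8.49 to between 9.91 and 10.2 (1.38, SE 0.24, adjusted p = 0.0407). Of the 79 SAUR genes 62 had a difference above 0, 28 lay wholly above 30 min (11.2% of all transcripts did), none lay wholly below, and the median difference was 0.39. The mean level of the family was 9.69, 9.70 and 9.35 at 30 min and 10.08, 9.99 and 9.96 at 2 h, lowest in 30 min replicate 3. On picloram the median difference of the 79 was -0.09. There 6 were called higher and 3 lower, against 2.55% and 3.33% of all transcripts. Neighbouring SAUR genes such as SAUR19 to SAUR24 are near-identical, so their probes may share signal. Besides SAUR61, the largest differences were those of SAUR37 (AT4G31320, 2.50), SAUR45 (AT2G36210, 1.75) and SAUR60 (AT1G20470, -1.16). None of these 3 was called.

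None of the 29 Aux/IAA genes was called, and their median difference was 0.13. The members that differed most were PAP2 (IAA27, -1.79), IAA15 (-1.72), IAA13 (-1.16) and IAA32 (-0.74). For PAP2 the difference came mostly from 2 h replicate 2 at 9.34, and IAA13 was spread widely at both times, with 2 h replicate 3 lowest at 10.22, while IAA15 read 9.83, 7.84 and 7.04 at 30 min and 6.41, 6.52 and 6.62 at 2 h. The 7 GH3 genes, whose products conjugate auxin to amino acids, lay between -1.18 (DFL1) and 0.54 (GH3.4), with WES1 at -0.50 and BRU6 at 0.44, and none was called. DFL1 read 14.26, 13.58 and 12.46 and then 12.42, 12.28 and 12.06, wholly below 30 min. On picloram DFL1 differed by 1.11 and BRU6 by 2.19 (adjusted p = 0.0895 and 0.0216).

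Of the 14 genes of gibberellin and brassinosteroid metabolism none was called. GA2OX7 had the largest difference (2.01, adjusted p = 0.261). GA2OX6, which inactivates gibberellins, came next with 14.29, 13.74 and 13.72 and then 12.86, 13.11 and 12.54 (-1.08, adjusted p = 0.0543), followed by GA20OX1 (0.70) and BR6OX1 (0.58). On picloram GA2OX6 fell by 1.12 (adjusted p = 0.0112). The 9 PIF factors and growth regulators had a median difference of 0.04, with HFR1 (0.84), PRE1 (0.78), PIL5 (-0.39) and PIF4 (-0.11) and no call. Among the 12 genes of wall loosening and primary wall synthesis CESA1, a cellulose synthase, read 15.64, 15.61 and 15.56 and then 14.85, 14.66 and 15.16 (-0.71, adjusted p = 0.097), and CEV1 (-0.43), EXPA11 (-0.29) and EXPA10 (0.29) followed. The 33 XTH genes of xyloglucan remodeling had a median of 0.27, the 22 PIP and TIP aquaporins of -0.01 and the 8 cell cycle genes of 0.07, with none called in any of them. The largest differences were XTH21 (1.36), XTH14, XTH31 (0.97) and XTH12 (0.95) in the first, TIP4;1 (1.89), TIP3;1 (-1.53), TIP2;3 (0.71) and PIP2;4 (0.61) in the second, and CDKB1;1 (0.21), CYCD3;1 (-0.18), CDKB2;1 (0.16) and CYCA1;1 (0.11) in the last.

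Further lists held no call. In the 19 cold and abscisic acid genes the largest differences were LTI65 (-0.99), ERD10 (-0.84), NCED3 (-0.76) and KIN1 (-0.73), and that of ERD10 came from 2 h replicate 2 at 11.37 against 14.15 to 14.61 in the other 5. In the 13 heat shock genes they were HSP18.2 (1.30), HSP17.6II (0.91), HSP17.4 (-0.72, adjusted p = 0.109) and HSP23.6-MITO (0.51). The nitrate reductases NIA1 (-0.99, adjusted p = 0.123) and NIA2 (-0.44) lay wholly below 30 min at 2 h, unlike NRT2:1 (-0.15) and NIR1 (-0.13). All 8 genes of ribosome biogenesis had differences below 0 (median -0.13), led by AT3G05060 (-1.44, again by 2 h replicate 2 alone), NOP56 (-0.67), AT5G27120 (-0.52) and AT5G14520 (-0.14). In the marker lists for shoot apex, stomata, xylem, phloem and epidermis none of the 22 genes was called, and the largest differences were those of AT1G22690 (-1.45) and FMA (FAMA, -0.94) of the stomatal lineage and CUC1 (-0.75) of the shoot apex.

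The time differences in both arms can be set side by side for all 108 calls, since the picloram groups share no sample with the control groups. On picloram 1783 transcripts (5.87%) were called between 30 min and 2 h, 773 higher and 1010 lower. Of the 76 control rises, 69 had a positive difference on picloram, 32 were called higher and 2 lower there. Of the 32 control falls, 25 had a negative difference, 18 were called lower and 5 higher. Among all transcripts 55.5% had the same sign in both arms, and the samples deviate together by number as given above. The median difference of the 76 was 1.68 in the controls and 0.97 on picloram, and that of the 32 was -1.37 and -0.89, and the control values are those the calls were made on.

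The time difference itself differed between the arms for 15 of the 108 (257 of all transcripts, 0.846%), in a fit without pairing. The control difference on which the 108 were picked is part of this interaction. Their share therefore cannot be set against that of all transcripts. With same-numbered control and picloram samples of a time as a random block, an alternative chosen after seeing the data, 1949 transcripts were called. The 18 genes called lower in both arms include the 4 subgroup Ib bHLH genes, PYE, ORG1, AT1G13609, UVR3, KUP9 and MEF18. CYP78A10 rose in both and more on picloram (2.15 in the controls and 5.09 on picloram), as did IOS1 (1.20 and 2.60). APT4 rose by 1.17 in the controls and fell by 1.09 on picloram (interaction -2.27, SE 0.28, adjusted p = 0.00898). ATCG00120 fell by 1.65 in the controls and rose by 0.88 on picloram (interaction 2.54, SE 0.32, adjusted p = 0.0111).

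**Figure D5:**
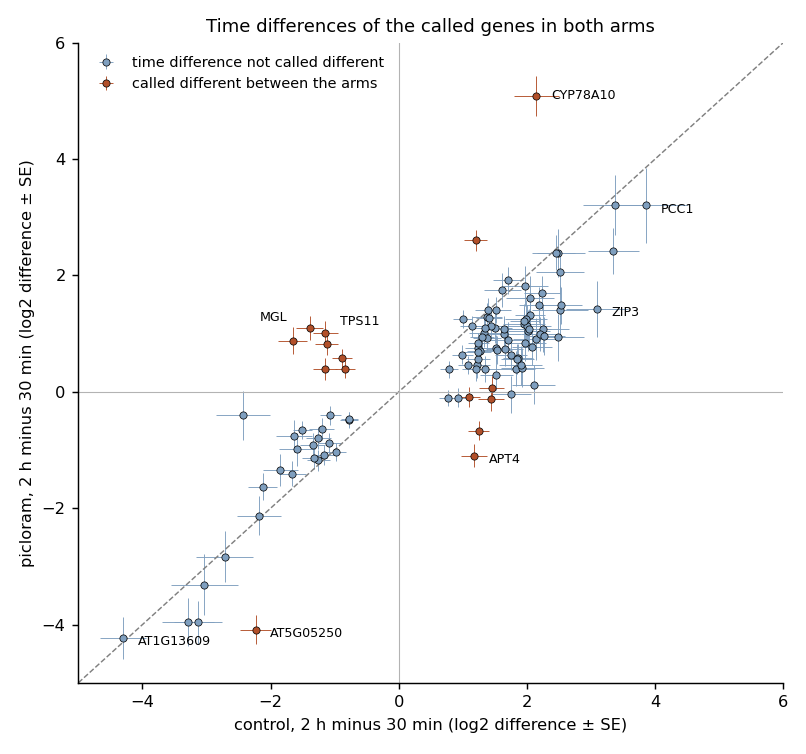
Log2 difference between 2 h and 30 min in the control samples (x axis) against the same in the picloram samples (y axis) for the 108 transcripts called in the controls, with standard errors, the line of equal differences dashed, and 15 transcripts whose difference between the arms was called in a darker color. The calls were made on the x axis, and 94 of the 108 points have the same sign on both axes.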

How the data were processed

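The deposited values were intensities per transcript, made by the authors from dual-color NimbleGen 4-plex arrays with a probe annotation on TAIR8. The methods and the submitters' notes name RMA, but the deposited medians of the 12 arrays differed by up to 1.72-fold, so the deposited intensities were taken to log2 and quantile normalized over the 12 arrays of experiment a. The values used held 1 transcript for each of the 30361 loci. The 12 samples of experiment b, on another chip and with no 30 min samples, were not used here. In limma 3.58.1 (R 4.3.3) 1 model with the 4 groups of 3 was fitted, and control 2 h against control 30 min, the same in picloram, and their difference were called at an FDR under 0.05 (Benjamini-Hochberg over 30361 transcripts). The replicates are separate pools, and their number limits the precision. Intervals of depth do not apply to arrays.

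The members and gene lists were chosen with earlier results of these data known. Named genes are all clock genes, the 12 highest and 12 lowest calls, and up to 4 members of each other list with the largest differences, called or not. Others, named for their function, were chosen after their values were seen. Symbols come from a RefSeq gene table, in which 29976 loci had an entry. No promoter, protein or genome sequence was used here. The fit was tested on simulated data, and alternatives covered normalization, offset, dim probes, samples and blocks. The plots were drawn with matplotlib 3.10.9 in Python 3.11.15.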

Additional observations from a re-analysis of the deposited data

Results flagged for a closer look

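For 15 of the 108 transcripts the difference between 2 h and 30 min differed between the control and the picloram samples by the interaction term of the limma fit (picloram minus control, log2, adjusted p under 0.05). The 108 were picked for their control difference, which is part of this term. Among those that fell in the controls, the interaction was 2.48 for MGL (SE 0.30, adjusted p = 0.00898), 2.16 for TPS11 (SE 0.28, adjusted p = 0.0126), 2.54 for ATCG00120 (SE 0.32, adjusted p = 0.0111) and 1.95 for AT4G32760 (SE 0.26, adjusted p = 0.0134), and all 4 had a positive difference on picloram. The same held for AT1G76740 (1.54), AT1G30690 (1.46) and AT1G02660 (1.23). AT5G05250 fell more on picloram than in the controls (-1.85). Among those that rose in the controls, the interaction was -2.27 for APT4 (SE 0.28, adjusted p = 0.00898) and -1.91 for AT1G72200 (SE 0.23, adjusted p = 0.00898), and both had a negative difference on picloram. AT1G70985 (-1.57), AT4G12870 (-1.38) and AT4G38820 (-1.19) differed by -0.13, 0.07 and -0.09 on picloram. CYP78A10 (2.94) and IOS1 (1.41) rose more on picloram.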

How the results depend on the processing

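The 108 calls between 2 h and 30 min were 35 without normalization between arrays, with 16 higher and 19 lower (45.7% higher, against 70.4%) and a shift of the median of all transcripts to -0.20. They were 183 with an offset of 50, 380 with a variance trend and robust fit, 1 with the 2 groups alone (4842 at an unadjusted p under 0.05), 1 at an FDR of 0.01, and 1 to 183 with a control sample left out. With alternatives chosen after seeing the data they were 12 without both 30 min samples numbered 3 and 229 with array weights. The 1783 calls on picloram were 1118 without normalization and 384 at an FDR of 0.01, and 577 to 1454 with a sample left out. The 257 calls of the difference between the arms were 26 without normalization, 550 without the dimmest 25%, 1156 with a variance trend and robust fit, 98 with the replicate block, 16 at an FDR of 0.01, 21 to 319 with a sample left out, 34 without both 30 min samples numbered 3, 755 with array weights and 1949 with same-numbered control and picloram samples as a random block. The cause of these shifts was not tested. The mean log2 difference of the 4 subgroup Ib bHLH genes was -2.22 with the offset and -2.79 without it.

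With the replicate number as a block 83 transcripts were called in the controls (55 higher and 28 lower), 66 of them among the 108. The numbers did not pair samples across the times: deviations of same-numbered control samples correlated at -0.02, -0.07 and -0.21. Median centring, cyclic loess, quantile normalization within each dye, leaving out the dimmest 25% and the random block gave 84, 97, 109, 147 and 138 calls. Over 282 genes and all settings no called difference changed sign, 4308 values kept their side of the threshold, 1024 lost it and 20 gained it. Most of the 4308 belong to genes that were not called and stayed so. The 1024 all belong to the 108 called genes, of which between 1 and 108 kept their call, depending on the setting. What limits the dim genes is that the background of the deposited values is not known.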

Other observations

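Some transcripts were low in a control and a picloram sample of the same number and time and nowhere else. In 244 cases both samples lay over 2 log2 units below the lowest of the other 10, over the 6 same-numbered pairs (94, 2 and 0 for numbers 1, 2 and 3 at 30 min, and 26, 77 and 45 at 2 h), and in 0 cases over the 12 pairs of different number within a time. A single sample lay alone by as much in 20 cases, 14 of them in control replicate 3 at 30 min. NRAMP4 read 9.46 in control replicate 2 at 2 h. PAP2 (IAA27) read 9.34 in the same sample. None of the 108 called transcripts was among the 244. The labels used here do not say which samples shared an array.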
